A study of Mus musculus with 4 samples.

Results

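The genes described here are 48 cyclins, cyclin-dependent kinases (CDKs), their inhibitors and phosphatases, pocket proteins, E2F transcription factors and replication licensing genes, listed by name from the cell cycle machinery by a rule that uses no measured level. The list was, however, chosen with earlier results of these data known. Each was read from its brightest probe set over the 4 arrays, which gave 47 of the 18193 genes named on the array. Ccnb1, which encodes a mitotic B-type cyclin, had no probe set paired with that symbol alone in the annotation used, and was not analysed here. Of the 47 genes, 46 reached a floor set at the median over all probe sets and arrays, a log2 level of 4.53, on at least 1 array and are called measured. The exception was Ccna1, a cyclin of meiosis in the male germ line, with levels of at most 3.15.

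The arrays held RNA of mouse embryonic fibroblasts (MEFs) from a study of reprogramming, in which introduced transcription factors turn differentiated cells pluripotent. Cells were fixed, permeabilized, stained for Oct4, Klf4 and the epithelial surface protein EpCAM and sorted, per the labels. There was 1 array for each of 4 fractions: Oct4+Klf4+EpCAM+ cells, Oct4+Klf4+EpCAM-negative cells, Oct4+Klf4-negative cells and Oct4-negative cells. The labels give no mouse strain, passage, day, reprogramming factors or vector, and do not say whether all fractions came from the same culture. They name Klf4 and EpCAM neither for the Oct4-negative cells nor, in the case of EpCAM, for the Oct4+Klf4-negative cells. With 1 array per fraction no test was possible, so every difference below is a description of these arrays.

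Cell division is driven by CDKs, which are active only when bound to a cyclin. D-type cyclins with Cdk4 or Cdk6 phosphorylate the pocket proteins, which frees E2F factors to transcribe the genes of DNA replication, and E-type cyclins with Cdk2 complete that switch. Origins of replication are licensed in G1 by loading the Mcm2 to Mcm7 helicase with Orc, Cdc6 and Cdt1, and mitosis is started by Cdk1 once CDC25 phosphatases remove the marks set by Wee1. Mouse pluripotent cells are known for a short G1 phase and little D-type cyclin, and fibroblasts for a G1 phase governed by growth factors.

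Of the sorted proteins' transcripts, Pou5f1 (which encodes Oct4) had levels of 11.70, 11.66 and 11.48 in the Oct4+Klf4+EpCAM+, Oct4+Klf4+EpCAM-negative and Oct4+Klf4-negative arrays, against 7.59 in the Oct4-negative array. By its brighter probe set, Klf4 had levels of 10.60 and 10.20 in the Klf4-positive arrays (Oct4+Klf4+EpCAM+ first), against 6.24 in the Oct4+Klf4-negative and 7.32 in the Oct4-negative array, and Epcam 9.52 in the Oct4+Klf4+EpCAM+ array, against 6.54 or less in the others. The dimmer probe set of Klf4 went the other way, with 3.20 and 2.67 in the Klf4-positive arrays, against 5.69 in the Oct4+Klf4-negative and 6.95 in the Oct4-negative array. The 14 fibroblast markers on the array had summed levels, as log2 of the sum, of 12.19, 12.98, 13.44 and 14.21 in the arrays from Oct4+Klf4+EpCAM+ to Oct4-negative. In that order the 16 keratinocyte markers summed to 11.98, 10.87, 8.78 and 9.05 and the 12 pluripotency markers to 11.34, 9.79, 7.31 and 7.03. The 11 neural markers summed to between 10.01 in Oct4-negative and 12.03 in Oct4+Klf4+EpCAM-negative, the 9 endothelial markers to between 8.12 in Oct4-negative and 9.80 in Oct4+Klf4+EpCAM-negative, and the 10 macrophage and leukocyte markers to between 7.04 in Oct4+Klf4-negative and 8.27 in Oct4-negative. The summed level was thus lowest for fibroblast markers, and highest for keratinocyte and pluripotency markers, in the Oct4+Klf4+EpCAM+ array. Single markers differed: Lum, a proteoglycan of connective tissue, was at 2.83 there, below the highest of the bacterial controls that stayed low (2.94), whereas Dcn, another such proteoglycan on the fibroblast list, was at 10.98, against 6.76 in the Oct4-negative array. Of 13 keratinocyte markers that reached the floor, 10 were higher in the Oct4+Klf4+EpCAM+ than in the Oct4-negative array. The other 3, Krt5, Krt10 and Ivl, were lower by at most 0.10. Krt15, Trp63 and Lor reached the floor on no array. The pluripotency sum includes Epcam itself and Cdh1 (9.66 in the Oct4+Klf4+EpCAM+ array), and 6 of the 12 markers, Nanog, Zfp42, Esrrb, Dppa3, Dppa5a and Tdgf1, reached the floor on no array. Gapdh control probe sets differed between the transcript's ends by 0.97, 1.04, 1.30 and 1.04 on the log2 scale in the same order, and those of Actb by -0.07, -0.06, -0.05 and -0.06. The part of these marker and Gapdh differences in the values below was not tested. In sorted bulk cells, fewer cells in a phase and less transcript per cell cannot be told apart.

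The broadest comparison set Oct4+Klf4+EpCAM+ cells against Oct4-negative cells, the ends of the gating scheme. By 1.5-fold or more, 4 of 11 genes of licensing and replication (the S group below) were higher in Oct4+Klf4+EpCAM+ cells and 0 were lower. Of the genes of G2 and mitosis, 5 of 11 were higher and 0 lower. The D-type cyclin genes Ccnd1 and Ccnd2, Cdk4, E2f1 and the CDK inhibitor gene Cdkn2c were lower. At a threshold of 1.5-fold, with the higher of both levels reaching the floor, 13 of 46 measured genes were higher and 5 lower, against 21.3% higher and 17.4% lower among all 11428 measured genes. At 2-fold, 4 were higher (E2f2, Gmnn, Cdc25a and Cdc25b) and 3 lower (Ccnd2, Cdkn2c and E2f1), against 11.9% and 10.8% of all measured genes. The median log2 difference was 0.42 for the 46 genes and 0.07 for all measured genes. The counts were thus near those of all measured genes. Of the 46, 35 had a difference above 0 and 11 below, against 55.5% above and 44.5% below among all measured genes.

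Each gene was assigned by its known role to G1 (9 genes), S (11 genes), G2/M (11 genes) or, for inhibitors, pocket proteins, E2F factors and Ccna1, to no phase. The S group holds the genes of licensing and replication together, although licensing itself takes place in G1. Its values are therefore no reading of S phase alone. Between the ends, the S group had a median log2 difference of 0.54 and the G2/M group of 0.48, with 11 of 11 and 11 of 11 members above 0. With arrays centred on their median or quantile-normalized again, Ccnb2 went below 0, which left 10 of 11 in the G2/M group and 11 of 11 in the S group, where Orc1 lay below 0 with the mean of all probe sets. The G1 group had a median of 0.11 and split, with 5 members above 0 and 4 below (Cdk6 also lay below 0 with centred arrays). The sign of the G1 median depended on the processing, since it was -0.03 with the mean of all probe sets, -0.05 with the brightest specific probe set and -0.0014 with centred arrays. At the Oct4 step (Oct4+Klf4-negative minus Oct4-negative) the medians were -0.14 in G1, 0.32 in S and 0.23 in G2/M, with 3 of 9, 10 of 11 and 9 of 11 members above 0 and 6, 1 and 2 below, against 52.6% and 47.2% of all measured genes. At the Klf4 step (Oct4+Klf4+EpCAM-negative minus Oct4+Klf4-negative) they were 0.17, 0.24 and 0.19, and at the EpCAM step (Oct4+Klf4+EpCAM+ minus Oct4+Klf4+EpCAM-negative) -0.09, 0.13 and 0.03. Medians of all measured genes at these steps were 0.02, 0.04 and 0.00. At the Klf4 step 6 of 9, 8 of 11 and 9 of 11 members lay above 0 and 3, 3 and 2 below, against 53.3% and 46.5% of all measured genes. At the EpCAM step 3 of 9, 9 of 11 and 8 of 11 lay above 0 and 6, 2 and 3 below, against 49.5% and 50.1%. With centred arrays the G2/M group had 5 above 0 and 6 below there, with a median of -0.02. The S and G2/M medians were thus largest at the Oct4 step and smallest at the EpCAM step, although the mean of the G2/M group was larger at the Klf4 step (0.31) than at the Oct4 step (0.18), and the G1 median was below 0 at both of those steps.

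**Figure D1:**
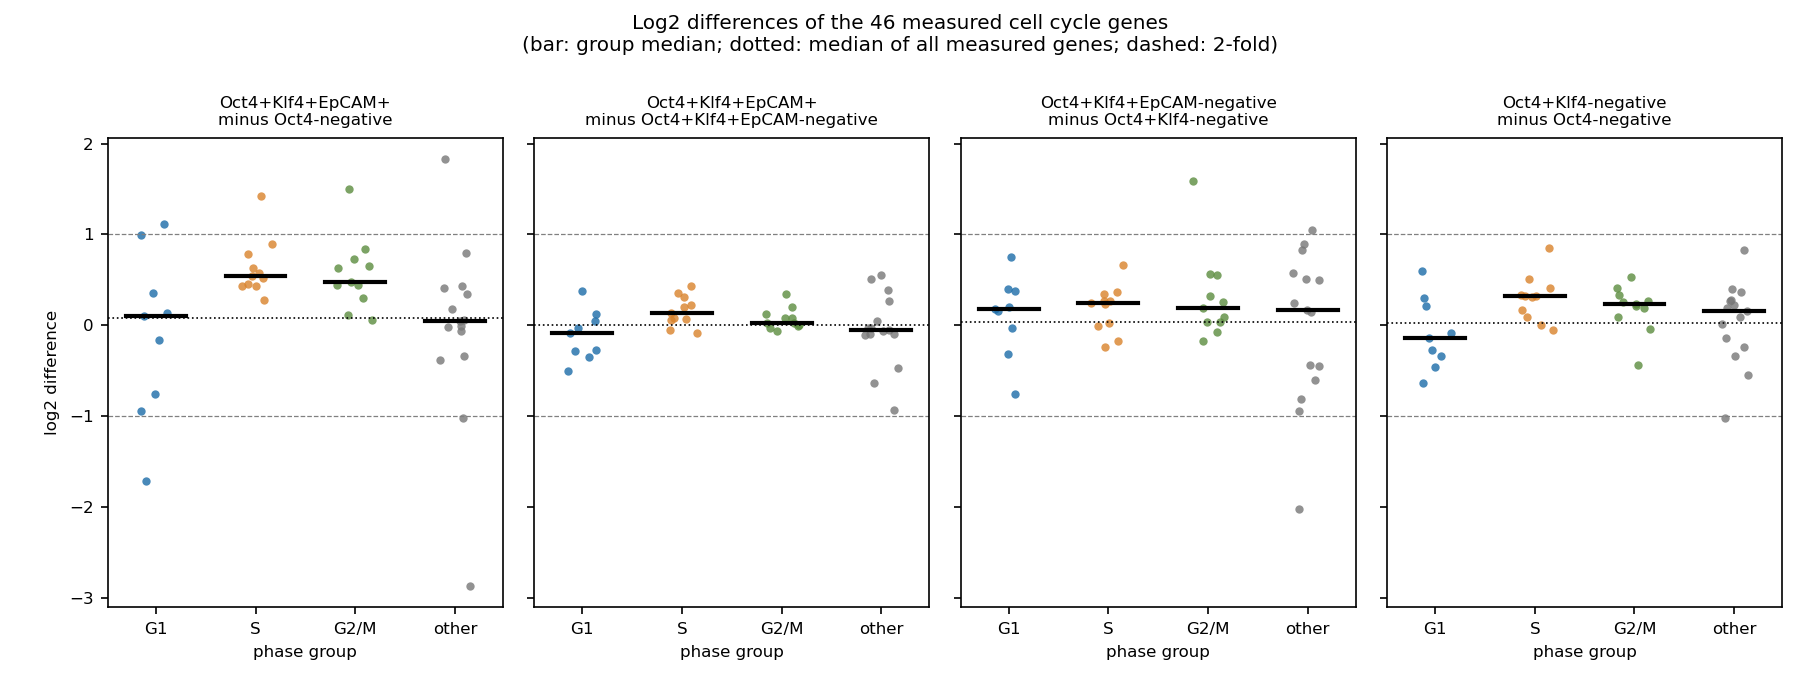
Log2 differences (vertical axis) of the 46 measured genes in 4 comparisons, with 1 point per gene, grouped by phase, a bar at each group's median, a dotted line at the median of all measured genes and dashed lines at 2-fold. In the comparison of the ends, all 11 S and all 11 G2/M points lie above 0, with medians of 0.54 and 0.48. Ccnb2 went below with other scalings, and Orc1 with the mean of all probe sets. The G1 points spread from -1.72 to 1.11.

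As a gauge of measurement scatter, the SD of a log2 difference between probe sets of the same gene had a median of 0.18 between the ends and of 0.12, 0.17 and 0.17 at the EpCAM, Klf4 and Oct4 steps, over 5708 genes. It holds no variation between cultures or sorts.

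Among the D-type cyclins, which link growth factor signals to the cycle, Ccnd2 had the largest difference. It had levels of 9.66 in Oct4+Klf4+EpCAM+, 10.17 in Oct4+Klf4+EpCAM-negative, 10.92 in Oct4+Klf4-negative and 11.38 in Oct4-negative cells. The order of the arrays was the order of the gates, and Ccnd2 was 3.30-fold lower in Oct4+Klf4+EpCAM+ than in Oct4-negative cells. Each of the 7 probe sets of Ccnd2 was lower, by log2 differences from -0.89 to -1.81. Ccnd1 had levels of 10.10, 10.38 and 10.41 in the Oct4+Klf4+EpCAM+, Oct4+Klf4+EpCAM-negative and Oct4+Klf4-negative arrays, against 11.05 in the Oct4-negative array. Here the Oct4-negative array stood above the other 3, and Ccnd1 was 1.56-fold lower in Oct4+Klf4-negative than in Oct4-negative cells, with log2 differences of -0.64, -0.91 and -0.57 by its 3 probe sets. Ccnd3 had no such order, with levels of 8.37, 8.32, 7.95 and 8.23 from Oct4+Klf4+EpCAM+ to Oct4-negative.

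Cdk4, the main kinase partner of D-type cyclins in fibroblasts, had levels of 10.05 in Oct4+Klf4+EpCAM+, 10.40 in Oct4+Klf4+EpCAM-negative, 10.72 in Oct4+Klf4-negative and 10.80 in Oct4-negative cells. It was 1.69-fold lower in Oct4+Klf4+EpCAM+ than in Oct4-negative cells, and its 3 probe sets gave log2 differences of -0.75, -0.73 and -0.77. Ccnd1, Ccnd2 and Cdk4 were the 3 of 46 genes with a lower level at each gate passed, against 10.9% of all measured genes. The gaps of Ccnd1 at the Klf4 step (-0.036) and of Cdk4 at the Oct4 step (-0.085) were under the scatter. Another probe set of Ccnd1 gave 0.055 at the Klf4 step. Cdk6, the other partner of D-type cyclins, stayed between 8.73 and 9.12, Cdk2, the partner of E- and A-type cyclins, between 6.93 and 7.38, and Cdk1, the mitotic kinase, between 9.15 and 9.27. Of the 4 CDKs on the list, Cdk4 was therefore the only one past 1.5-fold in any comparison.

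The E-type cyclins, which bind Cdk2 at the start of S phase, differed from each other. Ccne2 had levels of 7.22 in Oct4+Klf4+EpCAM+, 6.84 in Oct4+Klf4+EpCAM-negative, 6.09 in Oct4+Klf4-negative and 6.23 in Oct4-negative cells. The Klf4-positive arrays were the higher ones, and Ccne2 was 1.69-fold higher in Oct4+Klf4+EpCAM-negative than in Oct4+Klf4-negative cells. It has 1 probe set on the array, so no second reading was at hand. Ccne1 stayed between 9.24 and 9.58. Cdc25a, a phosphatase that activates Cdk2 and is a target of E2F factors, had levels of 8.12, 8.0 and 7.60 in the Oct4+Klf4+EpCAM+, Oct4+Klf4+EpCAM-negative and Oct4+Klf4-negative arrays, against 7.01 in the Oct4-negative array. It was higher at each gate passed, at the EpCAM step by 0.118, just under the scatter of 0.122. Between the ends it was 2.17-fold higher in Oct4+Klf4+EpCAM+ than in Oct4-negative cells. Its other probe sets gave log2 differences of 1.26 and 0.09, the dimmest being the one near 0.

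**Figure D2:**
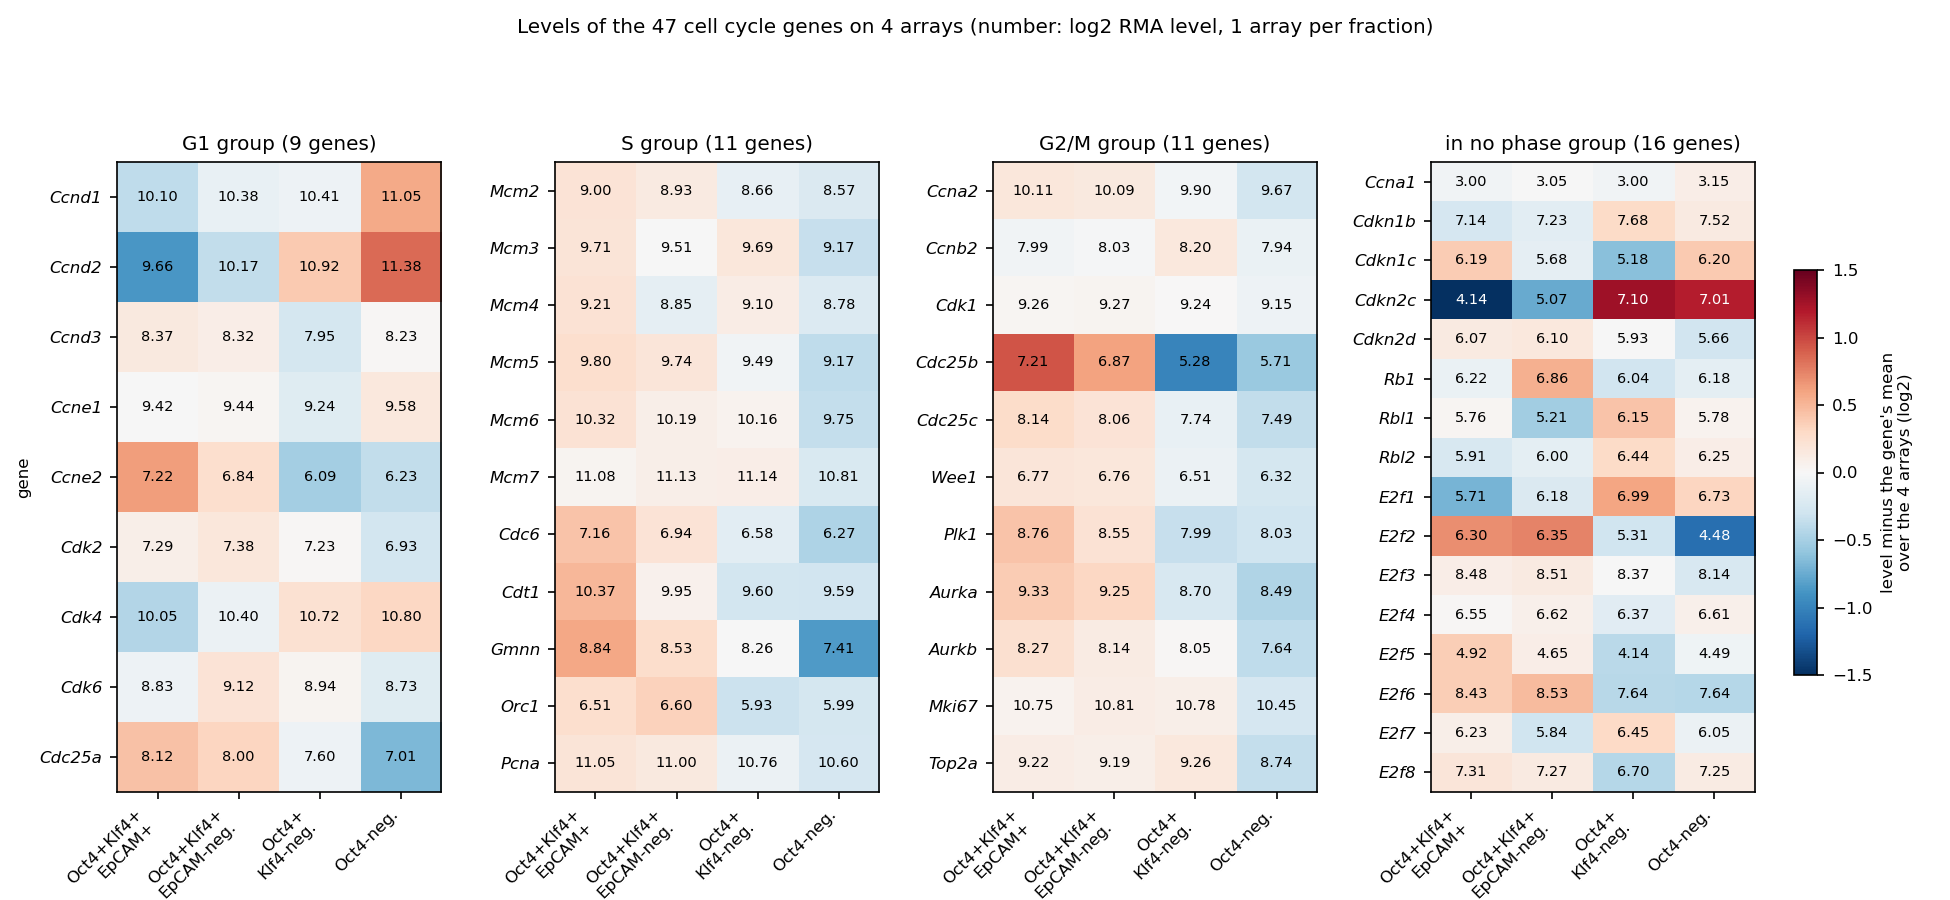
Log2 levels of the 47 genes (rows) on the 4 arrays (columns, Oct4+Klf4+EpCAM+ at the left and Oct4-negative at the right), printed in each cell and coloured by the level minus the gene's mean over the 4 arrays. Ccnd2, Cdk4 and Cdkn2c are lowest at the left, whereas Gmnn, Cdc6, Cdt1 and Cdc25a are highest there.

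The CDK inhibitors differed from each other. Cdkn2c, an INK4 inhibitor of Cdk4 and Cdk6, had the largest difference of all 46 genes, with levels of 4.14 in Oct4+Klf4+EpCAM+ and 5.07 in Oct4+Klf4+EpCAM-negative cells, against 7.10 in Oct4+Klf4-negative and 7.01 in Oct4-negative cells. Both Klf4-positive arrays lay below the other arrays, and the lowest level was under the floor but above the low bacterial controls. Cdkn2c was 4.08-fold lower in Oct4+Klf4+EpCAM-negative than in Oct4+Klf4-negative cells, a further 1.91-fold lower in Oct4+Klf4+EpCAM+ cells, and 7.32-fold lower in Oct4+Klf4+EpCAM+ than in Oct4-negative cells. It was read by 1 probe set. Cdkn2d, the other INK4 inhibitor on the list, stayed between 5.66 and 6.10.

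Of the CIP/KIP inhibitors, which bind cyclin-CDK complexes, Cdkn1b had levels of 7.14, 7.23, 7.68 and 7.52 from Oct4+Klf4+EpCAM+ to Oct4-negative, and differed by less than 1.5-fold in each comparison by this probe set, while its other probe set was past it between the ends, at -0.60. Cdkn1c, an imprinted gene, had levels of 6.19 in Oct4+Klf4+EpCAM+, 5.68 in Oct4+Klf4+EpCAM-negative, 5.18 in Oct4+Klf4-negative and 6.20 in Oct4-negative cells. Its lowest level was in the Oct4+Klf4-negative array, 2.03-fold below Oct4-negative, and the ends of the gating scheme had nearly the same level. Cdkn1c was read by 1 probe set. At the Oct4 step Cdkn1c was the 1 gene of 46 lower by 2-fold and 0 were higher, against 4.84% and 3.59% of all measured genes.

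Further CDK inhibitors outside the 48 genes were read for comparison. Cdkn2b and Cdkn2a, which encode inhibitors raised in senescent fibroblasts, were 4.14-fold and 3.95-fold lower in Oct4+Klf4+EpCAM+ than in Oct4-negative cells. For Cdkn2b the levels were 7.09, 7.10 and 7.95 in the Oct4+Klf4+EpCAM+, Oct4+Klf4+EpCAM-negative and Oct4+Klf4-negative arrays, against 9.14 in the Oct4-negative array. Cdkn2b was 2.29-fold and Cdkn2a 2.07-fold lower at the Oct4 step, where Cdkn2c differed by 1.06-fold. Cdkn3, a phosphatase that acts on CDKs, was 2.17-fold higher between the ends. Cdkn1a, the remaining gene of this list, had levels of 10.51, 10.54, 10.50 and 10.69 from Oct4+Klf4+EpCAM+ to Oct4-negative. By 2-fold, 1 of the 4 was higher and 2 lower between the ends, against 11.9% and 10.8% of all measured genes.

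The pocket proteins, which hold E2F factors inactive, differed in opposite directions at the Klf4 gate. Rb1 had levels of 6.22 in Oct4+Klf4+EpCAM+, 6.86 in Oct4+Klf4+EpCAM-negative, 6.04 in Oct4+Klf4-negative and 6.18 in Oct4-negative cells. Rbl1 had levels of 5.76, 5.21, 6.15 and 5.78 in the same arrays. The Oct4+Klf4+EpCAM-negative array was the highest for Rb1 and the lowest for Rbl1, with Rb1 1.77-fold higher and Rbl1 1.92-fold lower than in Oct4+Klf4-negative cells. In Oct4+Klf4+EpCAM+ cells Rb1 was 1.56-fold lower than in Oct4+Klf4+EpCAM-negative cells, and between the ends both differed by no more than 1.03-fold. The other probe sets of Rbl1 that reached the floor gave -0.58 and -0.51 at the Klf4 step. Rbl2 stayed between 5.91 and 6.44.

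Of the E2F factors that activate transcription, E2f2 and E2f1 went opposite ways. E2f2 had levels of 6.30 in Oct4+Klf4+EpCAM+, 6.35 in Oct4+Klf4+EpCAM-negative, 5.31 in Oct4+Klf4-negative and 4.48, just under the floor, in Oct4-negative cells. The Klf4-positive arrays did not differ from each other by more than the scatter, and E2f2 was 2.07-fold higher at the Klf4 step, 1.77-fold higher at the Oct4 step and 3.55-fold higher between the ends. Its other probe set gave a log2 difference of 2.06 between the ends. E2f1 had levels of 5.71, 6.18 and 6.99 in the Oct4+Klf4+EpCAM+, Oct4+Klf4+EpCAM-negative and Oct4+Klf4-negative arrays, against 6.73 in the Oct4-negative array. It was 2.03-fold lower in Oct4+Klf4+EpCAM+ than in Oct4-negative cells by this probe set, while its other probe set that reached the floor gave a smaller log2 difference of -0.47. E2f3 stayed between 8.14 and 8.51.

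Among the E2F factors known as repressors, E2f6, which acts with Polycomb proteins, had levels of 8.43 in Oct4+Klf4+EpCAM+ and 8.53 in Oct4+Klf4+EpCAM-negative cells, against 7.64 in Oct4+Klf4-negative and 7.64 in Oct4-negative cells. It was 1.85-fold higher at the Klf4 step and differed by 1.07-fold at the EpCAM step. E2f4 stayed between 6.37 and 6.62, and E2f5 lay near the floor, between 4.14 and 4.92. The atypical repressors E2f7 and E2f8 had log2 differences of -0.60 and 0.57 at the Klf4 step and of 0.39 and -0.55 at the Oct4 step. By these probe sets, the levels of each gene at the ends of the gating scheme were within 0.18 of each other. The other probe set of E2f8 gave 0.07 at the Klf4 step, -0.05 at the Oct4 step and 0.25 between the ends. E2f7 has 1 probe set.

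**Figure D3:**
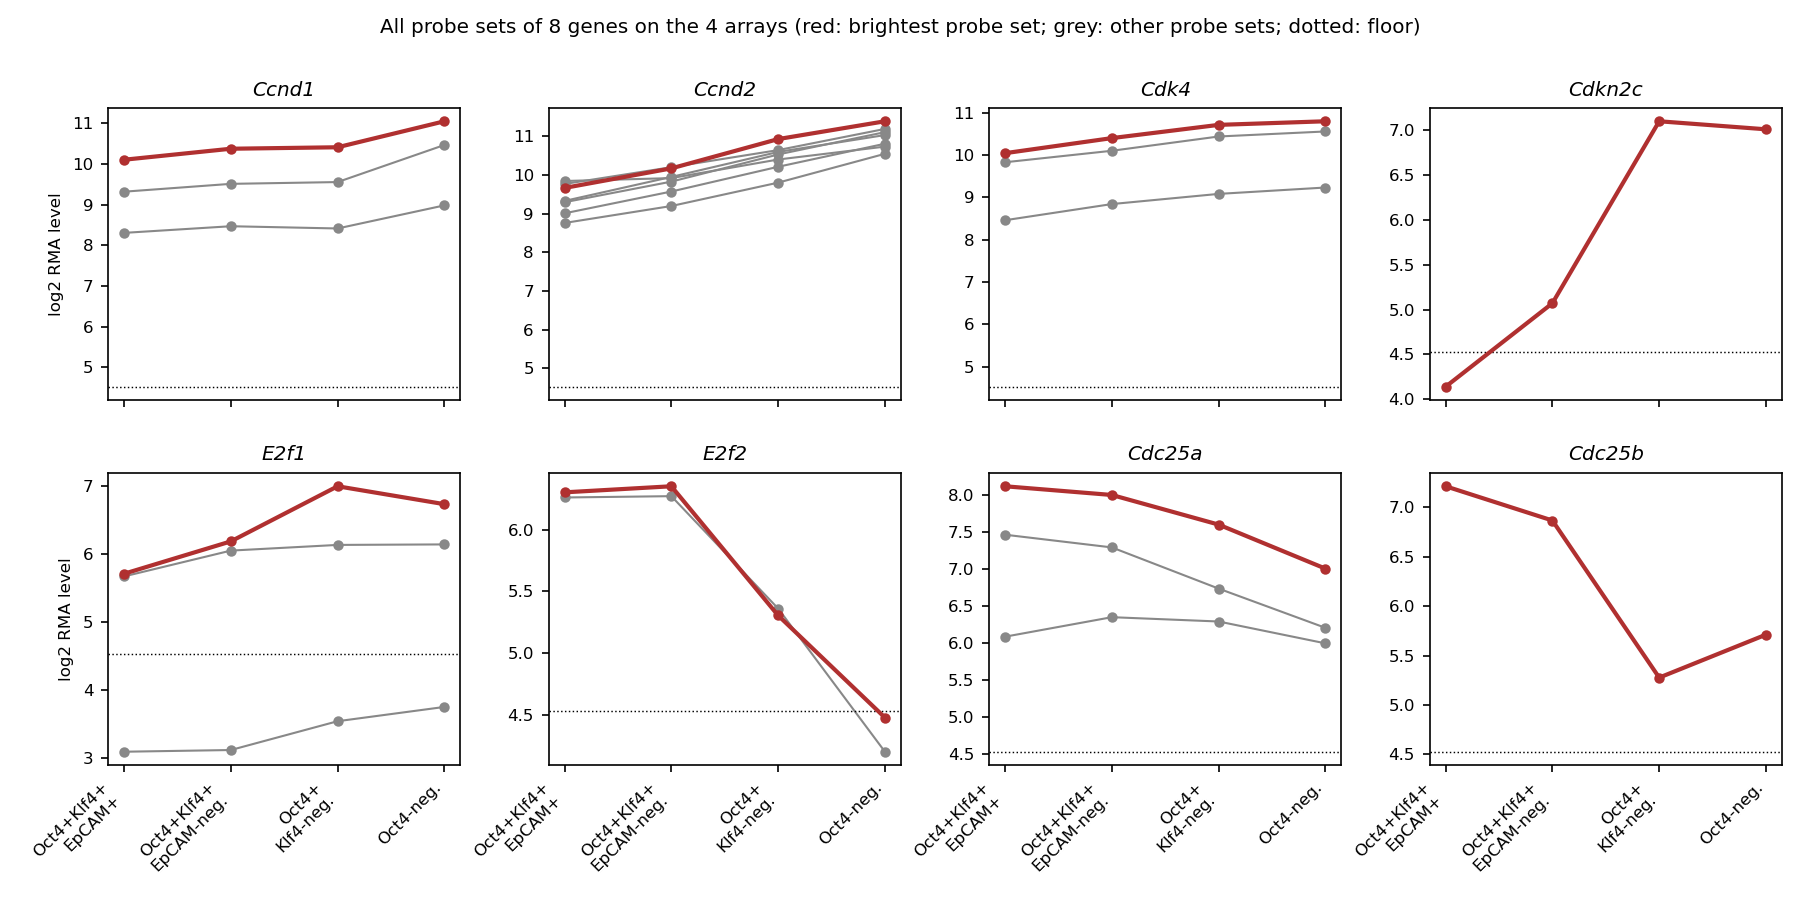
Log2 levels (vertical axes, scaled to each gene) of all probe sets of 8 genes on the 4 arrays, from Oct4+Klf4+EpCAM+ at the left to Oct4-negative at the right, with the brightest probe set in red, the others in grey and the floor of 4.53 as a dotted line. The 7 probe sets of Ccnd2 and the 3 of Cdk4 are each lowest in Oct4+Klf4+EpCAM+ cells, while Cdkn2c and Cdc25b rest on 1 probe set each.

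The S group was formed by the replicative helicase, the licensing factors and the sliding clamp. All 6 helicase genes were higher in Oct4+Klf4+EpCAM+ than in Oct4-negative cells, by log2 differences from 0.27 (Mcm7) to 0.63 (Mcm5), with a median of 0.49. At the Oct4 step the 6 also lay above 0, from 0.09 (Mcm2) to 0.51 (Mcm3), whereas at the Klf4 step 3 lay above 0 and 3 below. The sign of those below (Mcm3, Mcm4 and Mcm7) depended on the probe set. Mcm3 had -0.17 there, but from -0.07 to 0.13 by other probe sets. Mcm4 had -0.25 and 0.13, and the other probe sets of Mcm7 ran from -0.10 to 0.14. With the brightest specific probe sets, 10 of 11 genes of the S group lay above 0 at the Klf4 step, all but Mcm7. Mcm5 had levels of 9.80, 9.74 and 9.49 in the Oct4+Klf4+EpCAM+, Oct4+Klf4+EpCAM-negative and Oct4+Klf4-negative arrays, against 9.17 in the Oct4-negative array, and was 1.55-fold higher between the ends. Mcm6 had levels of 10.32, 10.19 and 10.16 in the same arrays, against 9.75 in the Oct4-negative array. For both, the Oct4-negative array was the lowest of the 4. A further probe set of each gave larger differences between the ends, 0.91 for Mcm5 and 0.80 for Mcm6.

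The licensing factors differed more than the helicase, with a median of 0.84 between the ends. Gmnn, which encodes geminin, the inhibitor of Cdt1, had levels of 8.84 in Oct4+Klf4+EpCAM+, 8.53 in Oct4+Klf4+EpCAM-negative, 8.26 in Oct4+Klf4-negative and 7.41 in Oct4-negative cells. It was higher at each gate passed, 1.80-fold at the Oct4 step and 2.69-fold between the ends, by its 1 probe set. Cdt1, its target, had levels of 10.37, 9.95 and 9.60 in the Oct4+Klf4+EpCAM+, Oct4+Klf4+EpCAM-negative and Oct4+Klf4-negative arrays, against 9.59 in the Oct4-negative array. Thus Gmnn differed most at the Oct4 step, where Cdt1 differed by 1.01-fold, and Cdt1 was 1.72-fold higher between the ends, by log2 differences of 0.78 and 0.75 in its probe sets that reached the floor.

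Cdc6, which loads the helicase with Cdt1, had levels of 7.16, 6.94 and 6.58 in the Oct4+Klf4+EpCAM+, Oct4+Klf4+EpCAM-negative and Oct4+Klf4-negative arrays, against 6.27 in the Oct4-negative array. It was 1.85-fold higher between the ends and higher at each gate, by its 1 probe set. Orc1, a subunit of the origin recognition complex, was 1.59-fold higher at the Klf4 step by its brightest probe set, with levels of 6.60 in Oct4+Klf4+EpCAM-negative and 5.93 in Oct4+Klf4-negative cells. Its other probe set went the opposite way, by -0.43 at that step and -0.89 between the ends, so that the direction of Orc1 depends on the probe set. Pcna, the sliding clamp of DNA polymerase, was 1.37-fold higher between the ends, with levels of 11.05 in Oct4+Klf4+EpCAM+ and 10.60 in Oct4-negative cells. Of the 11 genes of the S group, 7 were higher at each gate passed (Mcm2, Mcm5, Mcm6, Cdc6, Cdt1, Gmnn and Pcna), against 14.3% of all measured genes, as were 5 of 11 in the G2/M group (Ccna2, Cdc25c, Wee1, Aurka and Aurkb) and Cdc25a of the G1 group. Of these genes, only Gmnn and Cdc6 had gaps over the scatter at every gate. Each of the others had a gap under the scatter at some gate. Some gaps were far under it, such as 0.005 for Wee1 and 0.02 for Ccna2 at the EpCAM step. That of Cdt1 at the Oct4 step was 0.0067. With centred arrays 6 of 11 in the S group and 3 of 11 in the G2/M group were higher at each gate, without Mcm6, Ccna2 and Wee1, and with quantile normalization repeated 6 and 4, without Cdt1 and Wee1.

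In the G2/M group the largest difference was that of Cdc25b, a phosphatase that activates Cdk1 on entry into mitosis. It had levels of 7.21 in Oct4+Klf4+EpCAM+ and 6.87 in Oct4+Klf4+EpCAM-negative cells, against 5.28 in Oct4+Klf4-negative and 5.71 in Oct4-negative cells. The Klf4-positive arrays lay above the others, and Cdc25b was 3.01-fold higher at the Klf4 step by its 1 probe set. At that step Cdc25b and E2f2 were the 2 genes of 46 higher by 2-fold and Cdkn2c the 1 gene lower, against 8.44% and 6.88% of all measured genes. Cdc25c, which acts on Cdk1 as well, was 1.57-fold higher between the ends, with levels of 8.14 in Oct4+Klf4+EpCAM+ and 7.49 in Oct4-negative cells, and its other probe set gave a log2 difference of 1.07. Wee1, the kinase that opposes the CDC25 phosphatases, was 1.36-fold higher.

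The mitotic kinases were higher between the ends, Aurka, which builds the spindle poles, by 1.79-fold, Plk1, which acts from entry into mitosis to exit, by 1.65-fold and Aurkb, of the chromosomal passenger complex, by 1.54-fold. Aurka had levels of 9.33, 9.25 and 8.70 in the Oct4+Klf4+EpCAM+, Oct4+Klf4+EpCAM-negative and Oct4+Klf4-negative arrays, against 8.49 in the Oct4-negative array, and Plk1 8.76, 8.55 and 7.99, against 8.03. Plk1 was read by 1 probe set. For Aurka and Plk1 the Klf4-positive arrays were the higher ones, with log2 differences of 0.55 and 0.56 at the Klf4 step and of 0.21 and -0.04 at the Oct4 step. Aurkb differed more at the Oct4 step (0.40) than at the Klf4 step (0.09). Top2a, the topoisomerase that untangles chromosomes, and Mki67, the proliferation marker, also differed at the Oct4 step, by 0.52 and 0.33, and by -0.08 and 0.03 at the Klf4 step. Ccna2, the cyclin of S and G2, was 1.36-fold higher between the ends, and Ccnb2, a mitotic cyclin, differed by 1.04-fold.

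By their brightest probe sets the members of the S and G2/M groups lay above 0 between the ends, Ccnb2 and Cdk1 by less than the scatter. The sequences around their starts were therefore searched for the elements such genes are known for. The promoters are those of RefSeq on build GRCm38.p6, from 250 bases before to 50 bases after the start, and 35 of the 48 genes had at least 1. The E2F site was searched as TTTGGCGC or TTTCGCGC, the cell cycle homology region (CHR) as TTTGAA or TTCGAA, and the CCAAT box as CCAAT, each on both strands. An E2F site was found in 6 of 9 genes of the S group (Mcm3, Mcm5, Mcm6, Mcm7, Cdt1 and Orc1), 1 of 8 of the G2/M group (Cdk1) and 1 of 6 of the G1 group (Cdc25a), against 0.929% of 27025 genes with a promoter and 1.87% of the 9274 measured genes among them. A CHR was found in 7 of 8 genes of the G2/M group, 2 of 9 of the S group and 0 of 6 of the G1 group, against 21.7% of genes (15.9% of measured genes). A CCAAT box was found in 8 of 8, 7 of 9 and 3 of 6, against 41.1% (42.8%). Ccnb1 is counted in the G2/M group here. Each match describes letters in these windows and not a site in use.

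The first 3 promoters shown carry the E2F letters and belong to genes that were higher at each gate passed, Mcm6 not so with centred arrays. Each of these 3 genes had a gap under the scatter at some gate. They were picked for both traits. By their brightest probe sets, Mcm3, Mcm7 and Orc1 also carry the letters but were not higher at each gate. Mcm2, Cdc6, Pcna and Aurka were higher at each gate without these letters in their windows. Gmnn, Ccna2, Cdc25c, Wee1 and Aurkb were also higher at each gate but had no promoter to search. Whether the letters go with the order was not tested. Mcm5 lies at chr8:75109259-75109538, plus strand, Mcm6 at chr1:128359676-128359955, minus strand, and Cdc25a at chr9:109875329-109875608, plus strand. Capitals mark the E2F site, and the stretch runs to 30 bases after the start. In Mcm5 and Mcm6 both forms of the site overlap on opposite strands, which gives 1 longer run, starting at -153 and -110 from the start, and Mcm6 has another at -47. That of Cdc25a begins at -67.
Mcm5: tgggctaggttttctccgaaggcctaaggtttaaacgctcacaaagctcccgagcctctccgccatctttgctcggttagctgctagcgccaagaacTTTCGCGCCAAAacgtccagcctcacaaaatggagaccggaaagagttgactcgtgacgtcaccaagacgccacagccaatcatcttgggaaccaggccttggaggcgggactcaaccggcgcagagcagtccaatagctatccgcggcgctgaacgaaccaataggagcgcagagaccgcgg
Mcm6: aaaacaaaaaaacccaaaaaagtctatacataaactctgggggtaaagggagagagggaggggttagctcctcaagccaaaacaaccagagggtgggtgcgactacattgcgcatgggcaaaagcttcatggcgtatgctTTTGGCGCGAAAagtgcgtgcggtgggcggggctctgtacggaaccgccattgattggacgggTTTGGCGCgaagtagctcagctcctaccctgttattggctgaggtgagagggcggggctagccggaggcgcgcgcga
Cdc25a: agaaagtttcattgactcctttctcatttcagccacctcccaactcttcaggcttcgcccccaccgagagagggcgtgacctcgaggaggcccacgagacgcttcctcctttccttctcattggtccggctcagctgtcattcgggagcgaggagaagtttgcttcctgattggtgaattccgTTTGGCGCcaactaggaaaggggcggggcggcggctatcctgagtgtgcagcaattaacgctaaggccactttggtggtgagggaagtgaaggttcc

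The other pair are G2/M genes that both hold a CHR. At the Klf4 step the log2 difference was 1.59 for Cdc25b, the highest of the group, and 0.03, under the scatter, for Cdk1. Cdc25b lies at chr2:131186698-131186977, plus strand, and Cdk1 at chr10:69352883-69353162, minus strand. Capitals mark the CHR, which begins at base 8 of the transcript in Cdc25b and at -71 and -15 in Cdk1. These letters are thus found in a gene with a large difference at this step and in one with a difference near 0.
Cdc25b: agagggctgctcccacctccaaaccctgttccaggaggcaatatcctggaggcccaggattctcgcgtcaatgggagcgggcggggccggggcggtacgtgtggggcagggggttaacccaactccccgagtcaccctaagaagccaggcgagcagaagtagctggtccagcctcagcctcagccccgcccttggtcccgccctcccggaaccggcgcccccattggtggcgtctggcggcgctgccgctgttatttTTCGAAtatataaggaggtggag
Cdk1: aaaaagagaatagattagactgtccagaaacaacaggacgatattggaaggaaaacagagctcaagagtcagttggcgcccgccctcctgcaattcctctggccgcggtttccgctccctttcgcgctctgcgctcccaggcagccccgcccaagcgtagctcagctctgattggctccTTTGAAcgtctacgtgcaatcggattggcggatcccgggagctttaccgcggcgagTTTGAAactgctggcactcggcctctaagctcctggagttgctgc

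Other genes of the cycle were read from lists of known pathway members. Of 16 measured genes of origin and fork assembly, 6 were higher and 0 lower by 1.5-fold between the ends, against 21.3% and 17.4% of all measured genes, with a median log2 difference of 0.45. Cdc45 and Gins1, parts of the active helicase, were 2.56-fold and 2.23-fold higher, and Mcm10, which starts the fork, 2.49-fold. Replication enzymes and nucleotide supply had 12 of 26 higher and 0 lower (median 0.45), including Pold3, a polymerase subunit (2.07-fold), and Uhrf1, which carries DNA methylation through replication (2.03-fold). Spindle checkpoint and kinetochore genes had 7 of 24 higher and 1 lower (median 0.48), with Nusap1, a spindle protein, 2.66-fold higher, and checkpoint kinases and their partners had 3 of 10 higher and 0 lower (median 0.33), with Pkmyt1, a relative of Wee1, 2.33-fold and Rad1, of the checkpoint clamp, 2.24-fold higher. Between the ends 12 of 16, 20 of 26, 23 of 24 and 9 of 10 genes of these lists lay above 0, in the order given. Of all measured genes, 55.5% did.

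Of the remaining lists, other CDK inhibitors had a median of -1.08, with 1 of 4 higher and 2 lower. The medians of the lists that follow lay close to that of all measured genes, 0.07, except for DREAM and MuvB. The anaphase-promoting complex and its regulators had 3 of 17 higher and 0 lower (median 0.05), the ubiquitin ligases of cyclins and licensing factors 1 of 12 higher and 0 lower (median 0.07), other cyclins 0 of 11 higher and 1 lower (median -0.01) and other CDKs 1 of 15 higher and 2 lower (median -0.06). Cdk14 was 3.14-fold lower between the ends, and Cdk18 was 2.65-fold lower at the Oct4 step and 2.31-fold higher at the Klf4 step. Of the 9 genes of the DREAM and MuvB complexes, which switch cell cycle promoters off and on, 3 were higher and 1 lower (median 0.32). Mybl2, the activating partner of MuvB, had levels of 7.60 in Oct4+Klf4+EpCAM+, 6.92 in Oct4+Klf4+EpCAM-negative, 5.85 in Oct4+Klf4-negative and 6.04 in Oct4-negative cells, and was 2.95-fold higher between the ends. Lin37 and Lin54, subunits of MuvB, were each 2.43-fold higher, while Tfdp2, a dimer partner of E2F factors, was 2.71-fold higher at the Oct4 step and 2.67-fold lower at the Klf4 step.

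**Figure D4:**
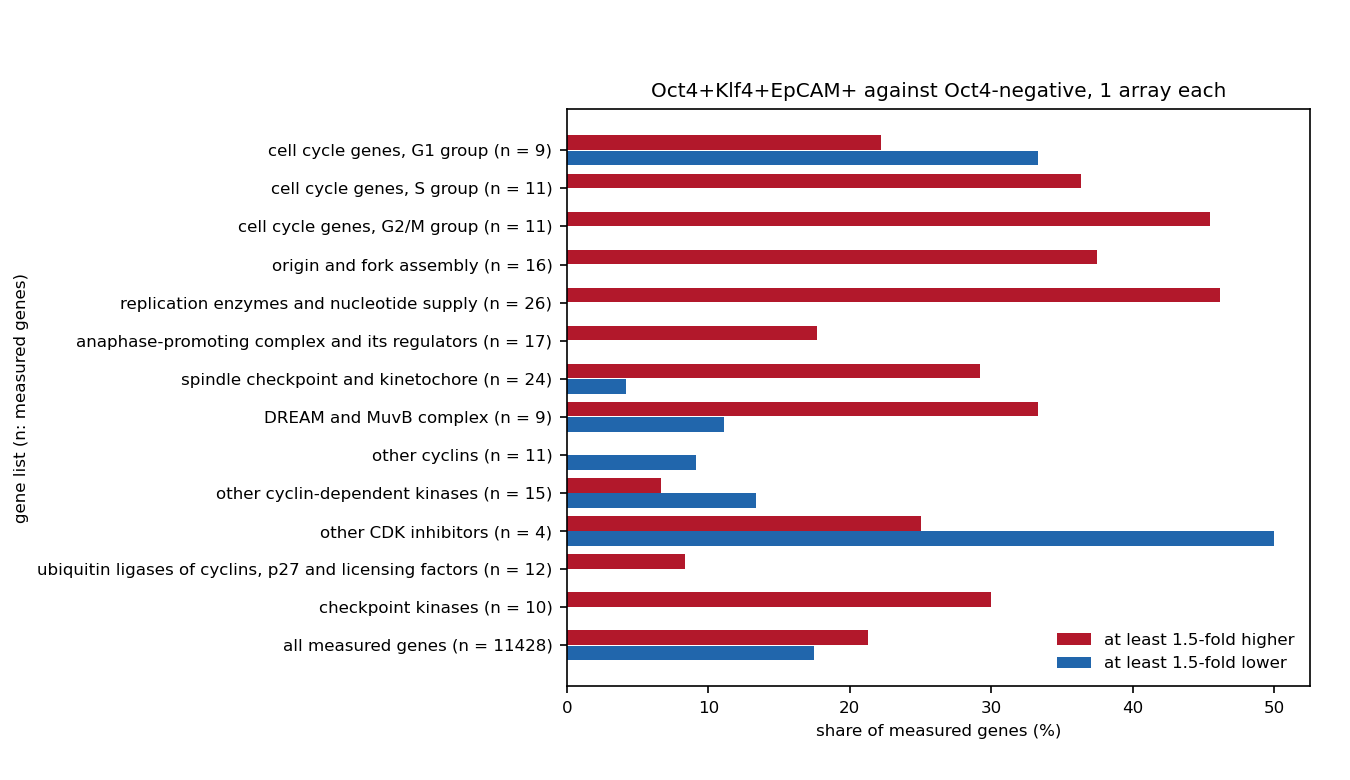
Share of measured genes (horizontal axis, percent, n beside each list) at least 1.5-fold higher (red) or lower (blue) in Oct4+Klf4+EpCAM+ than in Oct4-negative cells, for the 3 phase groups, 10 further lists and all measured genes. Replication enzymes, with 12 of 26 genes higher, exceed the 21.3% of all measured genes, while other cyclins have 0 of 11 higher.

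The smaller steps were counted by the 1.5-fold rule as well. At the EpCAM step 0 of 46 genes were higher and 2 lower, Cdkn2c and Rb1, against 6.52% and 4.9% of all measured genes, and 0 passed 2-fold in either direction, against 3.11% and 1.79%. At the Klf4 step 6 were higher (Ccne2, Rb1, E2f2, E2f6, Orc1 and Cdc25b) and 5 lower (Ccnd2, Cdkn2c, Rbl1, E2f1 and E2f7), against 15.2% and 12.8%. At the Oct4 step 3 were higher (E2f2, Gmnn and Cdc25a) and 2 lower (Ccnd1 and Cdkn1c), against 8.25% and 9.7%. At each step the share of the 46 genes was thus at or under that of all measured genes. Of the 18 genes past 1.5-fold between the ends, 11 had a further probe set that reached the floor, and in 11 of these each such probe set had the same direction, in 7 of them at 1.5-fold or more. At the Klf4 step 6 of 11 genes had a further probe set, with the same direction in 5 of the 6 (not Orc1) and at 1.5-fold in 1, and at the Oct4 step 3 of 5 had one, with the same direction in 3 and at 1.5-fold in 1.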

How the data were processed

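RNA of 4 sorted fractions was measured on Affymetrix arrays, 1 array per fraction. Per the labels' protocols, total RNA of fixed, stained cells was recovered with the RecoverAll kit and amplified and biotinylated with the Ovation Pico WTA kit, steps that can change a transcript's level with its integrity. The deposited values are log2 levels per probe set, which the authors made with RMA (background correction, quantile normalization and probe summary), according to the tool named in the submitters' processing notes. The version was not given in the sources used here. They ran from 1.31 to 14.4, with array medians from 4.49 to 4.55.

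Of 45101 probe sets, 64 were controls, 34945 had 1 gene symbol in the platform annotation, 932 had several and 9160 were not listed there. Each of the 18193 genes was represented by its brightest probe set over the 4 arrays. Of the 34945, 34741 were found by gene identifier in the RefSeq table of GRCm38.p6, which changed 0 symbols. A gene was measured if it reached 4.53, the 50th percentile of all values, on any array. As a guide to background, the 27 of 45 bacterial control probe sets that stayed under the floor reached at most 2.94. Differences are log2 differences between arrays, and a gene counted as higher or lower past 1.5-fold or 2-fold with the higher level at the floor. The size rules were tested on simulated data. No p-value, SD between samples or interval can be given, since the number of arrays limits the precision.

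The 48 genes, their phase groups and the gene lists (10 pathway lists and markers of fibroblasts, keratinocytes, macrophages and leukocytes, endothelium, neural and pluripotent cells) were chosen with earlier results of these data known. All 48 genes could be named, and of each pathway list up to 4 genes with the largest difference past 2-fold. Cdkn1a was named as well, as the remaining gene of its list. Promoter sequences are from RefSeq. Python 3.11.15, pandas 2.3.3, numpy 2.4.6 and matplotlib 3.10.9 were used. Alternatives were another probe set rule, floor, scaling, phase assignment and group summary.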

Additional observations from a re-analysis of the deposited data

How the results depend on the processing

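Of 96 recomputed counts of genes past a fold, 82 stayed within 1.5 times the reported count. Of 120 recomputed group medians, 115 moved by less than the probe set scatter and 8 changed sign. Of 216 recomputed differences of single genes, 205 moved by less than that scatter and 0 changed sign. Many of these could not move. The floor does not enter a gene's difference, and a gene with 1 probe set reads the same under each probe set rule. At the Klf4 step, the 2 genes higher by 2-fold became 1 with the mean of all probe sets, 0 with the floor at the 75th percentile (fewer genes tested), 1 with centred arrays and 1 with quantile normalization repeated, and the 1 lower gene became 2 under both scalings. By 1.5-fold, the 6 higher genes of that step became 1 with the higher floor, and the 5 lower became 3 with that floor and 3 with the mean of probe sets. The 2 genes lower at the EpCAM step became 1 with the mean of probe sets and 0 with the higher floor. At the Oct4 step, the 1 gene lower by 2-fold became 0 with the higher floor and 0 with repeated quantile normalization, and the 2 lower by 1.5-fold became 1 with the higher floor. The median of all genes listed, between the ends, was 0.22 with the mean of probe sets, against 0.42 as reported. The G1 median between the ends was below 0 in 5 settings: -0.03 with the mean of probe sets, -0.05 with the brightest specific probe set, -0.0014 with centred arrays, -0.10 as a mean, and -0.75 with the E-type cyclins, Cdk2 and Cdc25a counted in S, which leaves 5 genes. That regrouping gave -0.28 at the EpCAM step and reversed the Klf4 step to -0.036. With centred arrays the EpCAM step was -0.02 for all genes listed and -0.02 for the G2/M group. Beyond fewer genes tested or grouped, the cause was not tested. Centring shifted the median of all measured genes between the ends by over 0.1, to -0.035, against 0.07. No paired analysis was possible because each group has 1 array. Low levels near the floor, such as those of Cdkn2c in Oct4+Klf4+EpCAM+ and E2f2 in Oct4-negative cells, can understate a fold.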
